A study of Mus musculus with 12 samples.

Results

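The vacuolar-type H+-ATPase (V-ATPase) was followed through transcripts of 10 of its genes, chosen by name as widely expressed subunits. They are 5 genes of the V1 sector (Atp6v1a, Atp6v1b2, Atp6v1c1, Atp6v1d and Atp6v1h), 3 of the V0 sector (Atp6v0a1, Atp6v0d1 and Atp6v0c) and the accessory subunits Atp6ap1 and Atp6ap2. All 10 were among the 32721 genes of the table and among the 14279 with enough reads to be tested, and their mean levels lay at the 80.5th to 97.1st percentile of the genes tested. The samples were 12 poly-A RNA sequencing libraries of mouse embryonic fibroblasts (MEFs) in 4 groups of 3. All cells carried floxed Vps15 alleles (Vps15f/f) and had received an adenoviral vector, adeno-GFP for the group called WT and adeno-CRE, a vector for the recombinase that cuts out floxed segments, for the group called Vps15KO. At 5 days after transduction they were kept in basal medium, high glucose DMEM (4.5 g/L) with 10% serum, or moved for 2 h to EBSS, a salt solution without amino acids. Vps15, encoded by Pik3r4, is the regulatory subunit of the class III phosphoinositide 3-kinase. The WT cells are thus floxed cells with GFP, so that loss of Vps15 and the presence of Cre cannot be told apart, and EBSS takes away serum together with amino acids. The library names read pLEX in place of adeno for both vectors, and the labels do not say whether the 3 libraries of a group came from separate cultures, so the p-values measure the spread between these libraries.

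The V-ATPase pumps protons into lysosomes, endosomes and other compartments. Its peripheral V1 sector hydrolyses ATP on the cytosolic side and drives a rotor whose membrane ring, in the V0 sector, carries the protons across. Pump activity is set in part by reversible docking of V1 on V0, and in lysosomes the pump also touches the Ragulator and Rag GTPase machinery through which amino acids reach mTORC1. Many lysosomal and V-ATPase genes have promoters with CLEAR elements, which are E-box-like sites bound by the MiT/TFE transcription factors TFEB, TFE3 and MITF.

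Promoter windows (250 bases before to 50 after a gene's start) from RefSeq on GRCm38.p6, the assembly known as mm10, were at hand for 7 of the 10 genes. None was at hand for Atp6v1b2, Atp6v1c1 or Atp6v1h. Each window was searched on both strands for the E-box CACGTG, for TCACGTGA, which holds that E-box, and for the M-box TCATGTGA. The 3 stretches that held an 8-letter match are shown. Capitals mark the match and positions are counted from the annotated start, whose first transcribed base is 1.
Atp6v1a, chr16:44139309-44139459, minus strand, from 200 bases before to 50 bases before the start: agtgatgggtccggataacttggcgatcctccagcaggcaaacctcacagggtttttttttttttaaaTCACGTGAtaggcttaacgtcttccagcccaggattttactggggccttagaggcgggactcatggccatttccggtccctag
Atp6v0d1, chr8:105566055-105566264, minus strand, from 200 bases before to base 10: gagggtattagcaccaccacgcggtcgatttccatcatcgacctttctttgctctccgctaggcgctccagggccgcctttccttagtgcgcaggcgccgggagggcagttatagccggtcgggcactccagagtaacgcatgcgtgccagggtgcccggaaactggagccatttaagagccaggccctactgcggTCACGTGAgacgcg
Atp6v0c, chr17:24169451-24169485, minus strand, from 35 bases before to 1 base before the start: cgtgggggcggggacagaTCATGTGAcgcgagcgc

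The match lay at -132 to -125 in Atp6v1a, at -4 to 4 across the start of Atp6v0d1 and at -17 to -10 in Atp6v0c. Atp6v1a and Atp6v0c have other annotated starts, so these positions hold for the start shown. TCACGTGA was in 2 of the 7 members' windows and in 2.18% of the windows of 10879 tested genes, CACGTG in the same 2 and in 11.6%, and TCATGTGA in 1 and in 0.919%. Of 11 other subunit genes with a window, Atp6v0b and Atp6v0e held CACGTG and Atp6v0e held TCACGTGA. These are matches of letters and nothing was measured at these sites.

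The libraries held 21278921 to 21698584 reads in genes. Pik3r4 was lower in Vps15KO, at 0.751 of the WT level in basal medium and 0.707 in EBSS, and in each medium no Vps15KO library reached a WT library. The fall was partial, and reads over the whole gene do not tell in how many cells the allele was excised. In basal WT cells replicate 2 stood apart from replicates 1 and 3 (chi-square per gene 21.1 and 20.2, against 3.15 between the others), and in WT EBSS replicate 1 did (8.17 and 11.8, against 3.82). Values without these libraries are given where a call of a member changes, and for some of the other genes. Fibroblast markers were abundant in all 12 libraries, but the sum of 10 of them was in basal medium 460186 to 485273 normalized counts in WT against 214475 to 224235 in Vps15KO, and 399360 to 452258 against 196349 to 209680 in EBSS. Of 9 tested, 8 were lower in Vps15KO in each medium, beside 29.2% of all genes tested in basal medium and 27.8% in EBSS. Among the 8 was Col1a1 (from 80451 ± 10003 to 21530 ± 1748 in basal medium, SD, n = 3). The part of these markers in the genotype differences of V-ATPase genes was not tested. In bulk RNA, fewer cells of a kind and less RNA per cell cannot be told apart.

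Normalized counts are reads divided by the authors' size factor of the library. To compare genes with each other these counts were also divided by the length of the joined protein-coding exons in kilobases. The order of genes on this scale depends on the length used, and no other length was tried for it. The longest transcript of Atp6v0c had 2567 bases against 1258 of joined exons. For Atp6v1c1 these lengths were 4927 and 2071 and for Atp6v1h 4829 and 2176, so the longer lengths would lower the levels of these genes. In WT basal cells the proteolipid c of the membrane ring, Atp6v0c, was highest on this per-kilobase scale at 3235 ± 72.2 (SD, n = 3), followed by Atp6ap1 at 2867 ± 83.4. Next came the rotor subunit d, Atp6v0d1, at 1532 ± 197, the accessory Atp6ap2 at 1238 ± 126 and the catalytic A subunit, Atp6v1a, at 963 ± 131. The B subunit Atp6v1b2 (794 ± 29.6) and the C subunit Atp6v1c1 (749 ± 30.2) were neighbours whose difference was of the order of their spread. Atp6v0a1 (520 ± 43.1) and Atp6v1h (505 ± 14.5) differed by less than their spread, and Atp6v1d was lowest at 387 ± 23.3. In Vps15KO EBSS libraries the per-kilobase levels of Atp6v1a (1992 ± 80.1) and Atp6v1b2 (1996 ± 105) were nearly equal, Atp6v1c1 had reached 2447 ± 164 and Atp6v0a1 was lowest at 418 ± 36.0.

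**Figure D1:**
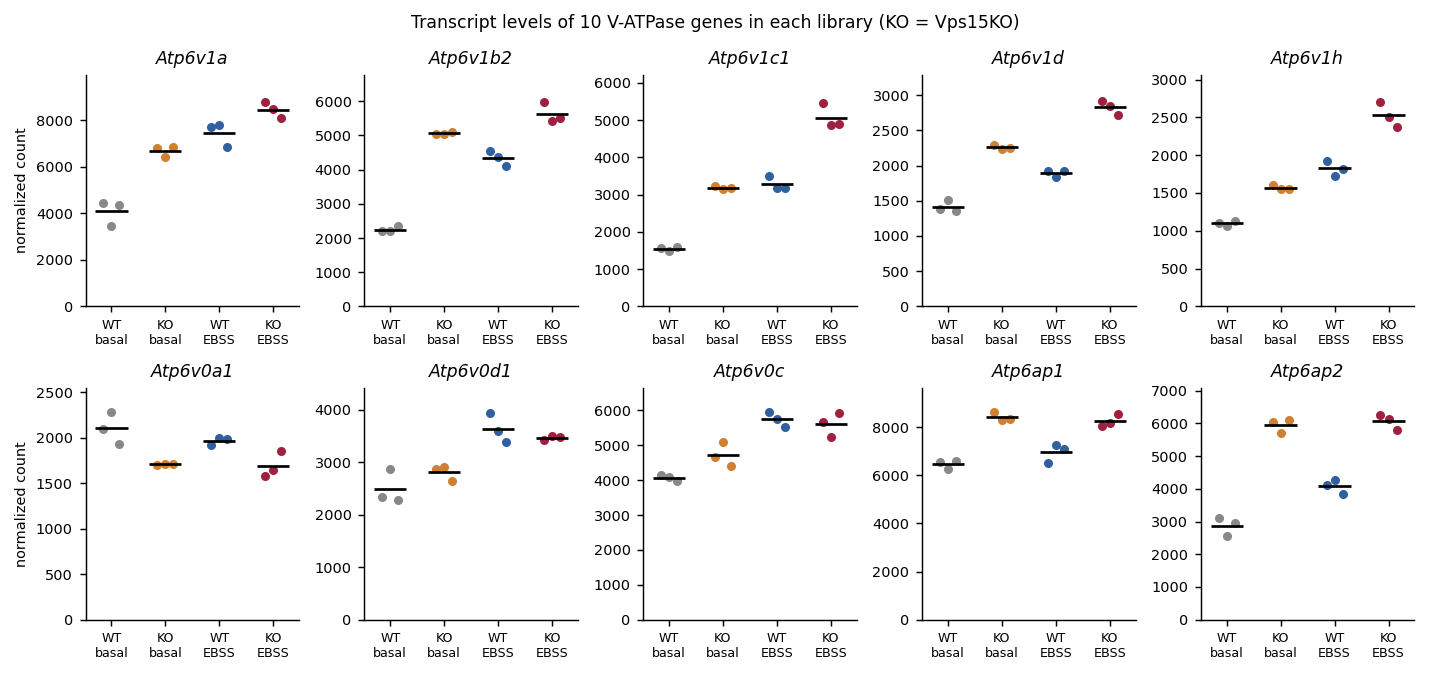
Normalized counts (vertical axis, from 0) of the 10 V-ATPase genes in each of 12 libraries (points, replicates 1 to 3 from left to right) with the group mean (bar), KO standing for Vps15KO. All 5 V1 genes were lowest in WT basal and highest in Vps15KO EBSS libraries, while Atp6v0a1 had its highest mean in WT basal.

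All 5 V1 genes had their lowest mean in WT basal and their highest in Vps15KO EBSS libraries. Atp6v1a (chromosome 16, 44085402 to 44139702, mm10) encodes the catalytic A subunit. It had 4466, 3454 and 4357 normalized counts in the WT basal group, 6795, 6417 and 6834 in Vps15KO basal, 7709, 7799.8 and 6856 in WT EBSS and 8798, 8471 and 8117 in Vps15KO EBSS libraries. The 4 groups followed this order without overlap, and WT basal replicate 2 was the lowest library of all.

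Atp6v1b2 (chromosome 8, 69088736 to 69113718) encodes the B subunit, which alternates with A in the hexameric head. It had 2194, 2195 and 2339 normalized counts in WT basal, 4534, 4379 and 4119 in WT EBSS, 5039, 5048 and 5111 in Vps15KO basal and 5978, 5418 and 5523 in Vps15KO EBSS libraries. Here the untreated Vps15KO cells lay above the starved WT cells, the reverse of Atp6v1a, again with no overlap between any neighbours. Its kidney-enriched counterpart Atp6v1b1 took at most 0.0162% of the B-subunit reads per kilobase in any library.

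Atp6v1c1 (chromosome 15, 38661904 to 38692444) encodes the C subunit, which bridges the stator and the V0 sector and is released when V1 undocks. It had 1571, 1482 and 1602 normalized counts in the WT basal group, 3237, 3148 and 3181 in Vps15KO basal, 3492, 3172 and 3166 in WT EBSS and 5459, 4858 and 4885 in Vps15KO EBSS libraries. Vps15KO basal and WT EBSS overlapped, and these were the only neighbouring groups that did. Among the 10 genes it had the largest spread of group means.

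Atp6v1d (chromosome 12, 78842982 to 78862008) encodes the D subunit of the central rotor shaft. Its normalized counts were 1382, 1516 and 1357 in WT basal, 1927, 1841 and 1918 in WT EBSS, 2292, 2239.6 and 2255 in Vps15KO basal and 2915, 2847 and 2717 in Vps15KO EBSS libraries. As for Atp6v1b2, Vps15KO basal stood above WT EBSS and no neighbours overlapped.

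Atp6v1h (chromosome 1, 5082978 to 5163213) encodes the H subunit, which keeps detached V1 from spending ATP. Its normalized counts were 1101, 1065 and 1128 in WT basal, 1599, 1548 and 1548 in Vps15KO basal, 1928, 1723 and 1823 in WT EBSS and 2706, 2503 and 2374 in Vps15KO EBSS libraries. Each step of this order was free of overlap.

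The 3 V0 genes followed other orders. Atp6v0a1 (chromosome 11, 101009422 to 101063719) encodes a1, an isoform of the a subunit whose membrane part forms the proton half-channels. It had 2095, 2281 and 1932 normalized counts in WT basal, 1917, 2001 and 1986 in WT EBSS, 1700.1, 1706 and 1712 in Vps15KO basal and 1577, 1646 and 1857 in Vps15KO EBSS libraries. Both WT groups overlapped, both Vps15KO groups overlapped, and each of the 6 Vps15KO libraries was below each of the 6 WT libraries.

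Atp6v0d1 (chromosome 8, 105524461 to 105566064), the d subunit that couples the shaft to the ring, had in basal medium 2337, 2864 and 2283 normalized counts in WT and 2871, 2919.8 and 2649 in Vps15KO. In EBSS it had 3935, 3594 and 3395 in WT and 3433, 3502 and 3483 in Vps15KO. The media were separated in both genotypes, and the genotypes overlapped in both media.

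Atp6v0c (chromosome 17, 24163865 to 24169678), the proteolipid of the ring, had in basal medium 4153, 4084 and 3973 normalized counts in WT and 4665, 5099.6 and 4399 in Vps15KO. In EBSS it reached 5944, 5765 and 5521 in WT and 5662, 5236 and 5933 in Vps15KO. The genotypes were separated in basal medium and overlapped in EBSS. Of its pseudogenes, Atp6v0c-ps2 had at most 50.3 and Atp6v0c-ps1 at most 4.90 normalized counts in any library, so reads shared with these copies were few in the counts as deposited.

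The accessory subunits help the pump assemble in the endoplasmic reticulum and stay with it. Atp6ap1 (chromosome X, 74297097 to 74304721) had 6561, 6249 and 6587 normalized counts in WT basal, 6528, 7247 and 7115 in WT EBSS, 8643, 8294 and 8344 in Vps15KO basal and 8034, 8192 and 8549 in Vps15KO EBSS libraries. All Vps15KO libraries stood above all WT libraries, and within each genotype the media overlapped. Atp6ap2 (chromosome X, 12587759 to 12617051), also known as the (pro)renin receptor, had 3119.5, 2551 and 2960.0 normalized counts in WT basal and 4129, 4269 and 3845 in WT EBSS libraries. In Vps15KO it had 6049, 5710.2 and 6107 in basal medium and 6261, 6145 and 5812 in EBSS, so that only the WT groups were separated by the medium.

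**Figure D2:**
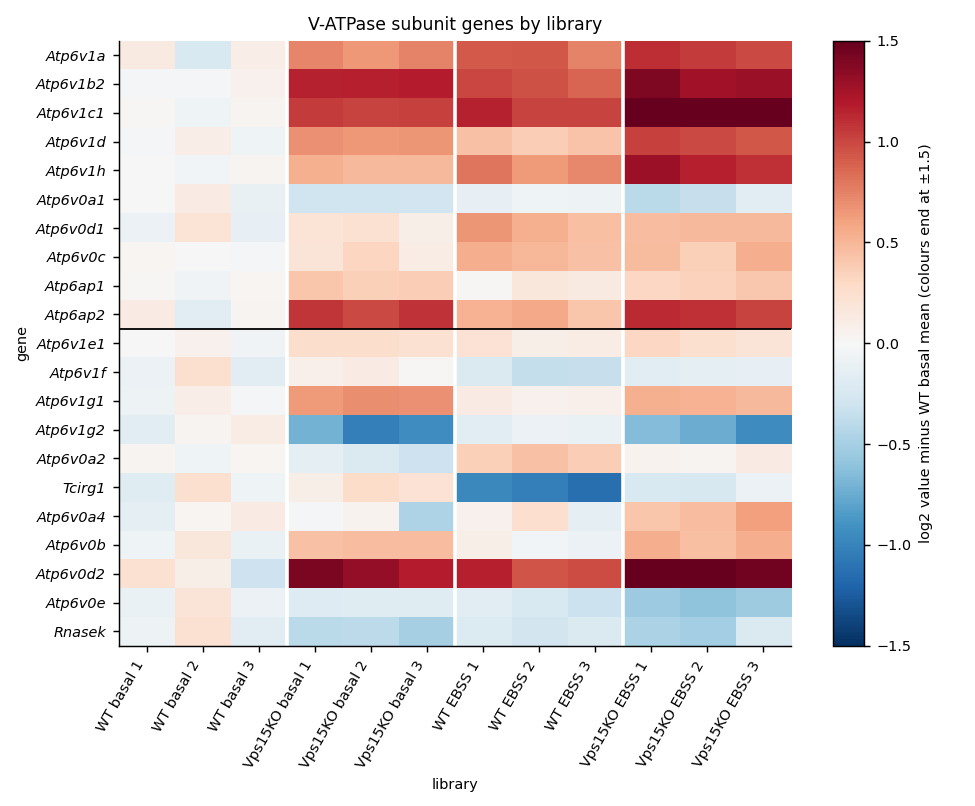
Deposited log2 value of each V-ATPase subunit gene (rows) in each library (columns) minus the mean of WT basal, on a colour scale marked beside the map, with the 10 members above the line and the other subunits tested below it. Among the members Atp6v1b2, Atp6v1c1 and Atp6ap2, and below the line Atp6v0d2, are red in all Vps15KO libraries, whereas Tcirg1 is blue in the WT EBSS libraries.

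In WT cells 2 h of EBSS raised 8 of the 10 genes and lowered none. All 5 V1 genes rose, by a median of 0.87 on the log2 scale of the deposited values. The rise was 2.11 times for Atp6v1c1, 1.94 times for Atp6v1b2, 1.82 times for Atp6v1a, 1.66 times for Atp6v1h and 1.34 times for Atp6v1d as ratios of mean normalized counts. In V0, Atp6v0d1 rose 1.46 times and Atp6v0c 1.41 times, and of the accessory subunits Atp6ap2 rose 1.42 times. Of all genes tested, 31.4% were called higher and 31.3% lower, and the median log2 change was 0.52 over the members and -0.02 over all genes tested.

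The test was limma's moderated comparison of group means on the deposited log2 values, two-sided, with Benjamini-Hochberg adjustment over the 14279 genes and a call at an adjusted p under 0.05. The log2 change was 1.06 ± 0.06 (SE; adjusted p = 9.01e-11) for Atp6v1c1, 0.94 ± 0.06 (1.91e-10) for Atp6v1b2 and 0.87 ± 0.08 (4.88e-08) for Atp6v1a. Atp6v1h changed by 0.72 ± 0.06 (1.82e-08), Atp6v1d by 0.41 ± 0.06 (6.92e-06), Atp6v0d1 by 0.55 ± 0.08 (7.87e-06), Atp6ap2 by 0.50 ± 0.07 (5.90e-06) and Atp6v0c by 0.49 ± 0.06 (2.80e-06). In each of these 8 genes the 3 EBSS libraries lay above the 3 basal libraries, as in 32.7% of all genes tested, while 32.5% lay below and no member did. Atp6v0a1 (-0.09 ± 0.07, adjusted p = 0.257) and Atp6ap1 (0.11 ± 0.06, adjusted p = 0.119) were not called, with 95% intervals of -0.24 to 0.05 and -0.02 to 0.23. Across all genes the EBSS change in WT ran with transcript length (Spearman's rho 0.307 over genes) and against GC content (-0.282). With both trends removed Atp6v1h rose by 0.45 and Atp6v1d by 0.24, still called, Atp6v0a1 was called lower (-0.25, adjusted p = 0.00481) and Atp6ap1 higher (0.18, adjusted p = 0.00751). Without WT EBSS replicate 1, Atp6ap1 was also called (0.15, adjusted p = 0.0419).

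In Vps15KO cells EBSS raised 7 of the 10 genes and lowered none. All 5 V1 genes and the V0 genes Atp6v0d1 and Atp6v0c rose, while neither accessory subunit was called. The largest rises were those of Atp6v1h, 1.61 times, and Atp6v1c1, 1.59 times. Atp6v1a rose 1.27 times, Atp6v1d 1.25 times, Atp6v0d1 1.23 times, Atp6v0c 1.19 times and Atp6v1b2 1.11 times. Of all genes tested 25.9% were called higher and 26.1% lower, and the median log2 change was 0.28 over the members against -0.02 over all genes.

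Atp6v1h changed by 0.68 ± 0.06 (SE; adjusted p = 6.04e-08), Atp6v1c1 by 0.66 ± 0.06 (7.46e-08), Atp6v1a by 0.34 ± 0.08 (0.00203), Atp6v1d by 0.32 ± 0.06 (0.000183), Atp6v0d1 by 0.30 ± 0.08 (0.00329) and Atp6v0c by 0.25 ± 0.06 (0.00353). In these genes and in Atp6v1b2, 7 in all, every EBSS library was above every basal library, as in 31.1% of all genes tested, while 31.9% lay below and no member did. The change of Atp6v1b2, 0.15 ± 0.06 (adjusted p = 0.0354), was close to the threshold and was lost without any of 5 of the 6 Vps15KO libraries (adjusted p = 0.175 without Vps15KO EBSS replicate 1) and under quantile normalization (0.08, adjusted p = 0.272). The change of Atp6v1a was 0.21 with length and GC trends removed. Atp6ap2 (0.03 ± 0.07, 95% interval -0.12 to 0.17), Atp6ap1 (-0.03 ± 0.06, -0.15 to 0.09) and Atp6v0a1 (-0.01 ± 0.07, -0.16 to 0.13) were not called, and their groups overlapped.

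**Figure D3:**
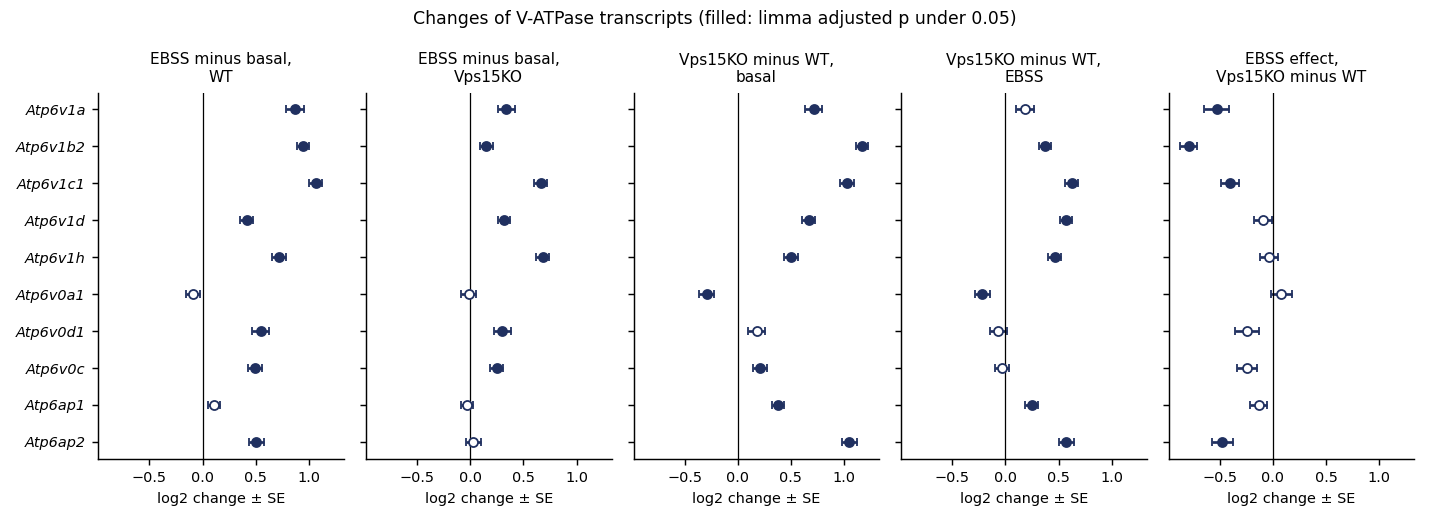
Log2 change with its standard error (horizontal axis) of each member (rows) in the 4 comparisons of groups and in the interaction of EBSS with genotype, filled where limma's adjusted p was under 0.05. All 5 V1 genes are filled to the right of 0 in the first 3 panels, and 4 genes are filled to the left of 0 in the last.

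The EBSS rise differed between genotypes for 4 genes, and for each it was smaller in Vps15KO. Atp6v1b2 rose by 0.94 in WT and 0.15 in Vps15KO, a difference of -0.79 ± 0.08 (SE, interaction term; adjusted p = 4.49e-06). Atp6v1a rose by 0.87 and 0.34 (difference -0.53 ± 0.12, adjusted p = 0.00396) and Atp6v1c1 by 1.06 and 0.66 (-0.40 ± 0.09, adjusted p = 0.00387). For Atp6ap2 the change was 0.50 in WT and 0.03 in Vps15KO (-0.48 ± 0.10, adjusted p = 0.00269). Of all genes tested 8.24% had a called difference in this direction and 9.55% in the other, in which no member was called.

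For Atp6v1h the difference was -0.04 ± 0.09 and for Atp6v1d -0.10 ± 0.08, neither called, with 95% intervals of -0.22 to 0.15 and -0.27 to 0.08. The V1 genes therefore included 3 with a called difference and 2 without. The differences of Atp6v0c (-0.25 ± 0.09, adjusted p = 0.0706) and Atp6v0d1 (-0.24 ± 0.11, adjusted p = 0.139) missed the threshold. Without WT basal replicate 2 they were called (-0.25, adjusted p = 0.036, and -0.35, adjusted p = 0.00274). Atp6v0a1 (0.08 ± 0.10) and Atp6ap1 (-0.13 ± 0.08) had no called difference. The difference of Atp6v1a was not called when genes of low value were kept in the adjustment (adjusted p = 0.0631).

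**Figure D4:**
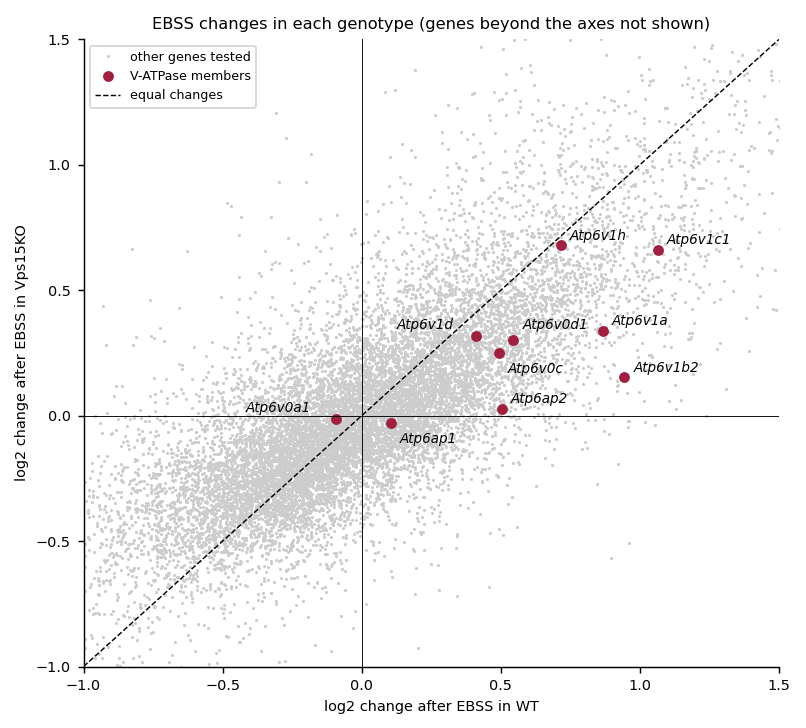
Log2 change after EBSS in WT (horizontal axis) against that in Vps15KO (vertical axis) for the members (large points) and all other genes tested (small points), with the line of equal changes. Atp6v1h lies near the line, and Atp6v1b2 (0.94 and 0.15) and Atp6ap2 (0.50 and 0.03) lie far below it.

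In basal medium 8 of the 10 genes were higher and 1 was lower in Vps15KO. Atp6v1b2 was 2.26 times, Atp6ap2 2.07 times and Atp6v1c1 2.05 times as high as in WT. Atp6v1a was 1.63 times, Atp6v1d 1.60 times, Atp6v1h 1.43 times, Atp6ap1 1.30 times and Atp6v0c 1.16 times as high, and Atp6v0a1 was at 0.811 of the WT level. Of all genes tested 29.3% were called higher and 29.2% lower, and the median log2 difference was 0.58 over the members. This comparison and the EBSS effect in WT share the WT basal libraries, so the 2 sets of values are not independent.

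The log2 difference was 1.17 ± 0.06 (SE; adjusted p = 1.55e-11) for Atp6v1b2, 1.05 ± 0.07 (6.33e-10) for Atp6ap2, 1.03 ± 0.06 (1.61e-10) for Atp6v1c1, 0.71 ± 0.08 (6.93e-07) for Atp6v1a and 0.66 ± 0.06 (2.12e-08) for Atp6v1d. It was 0.50 ± 0.06 (2.00e-06) for Atp6v1h, 0.38 ± 0.06 (1.77e-05) for Atp6ap1, 0.21 ± 0.06 (0.00922) for Atp6v0c and -0.29 ± 0.07 (0.00130) for Atp6v0a1. In all 9 the genotypes did not overlap, 8 above and 1 below, beside 30.5% above and 31.1% below among all genes tested. The call of Atp6v0c was lost without Vps15KO basal replicate 2 (0.15, adjusted p = 0.0718). Atp6v0d1 was not called (0.18 ± 0.08, adjusted p = 0.0574) and WT basal replicate 2, its highest WT basal library, overlapped Vps15KO. Without that library it was called (0.28, adjusted p = 0.000305).

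In EBSS 6 of the 10 genes were higher and 1 was lower in Vps15KO. The V1 genes Atp6v1c1 (1.55 times), Atp6v1d (1.49 times), Atp6v1h (1.39 times) and Atp6v1b2 (1.30 times) and both accessory subunits, Atp6ap2 (1.49 times) and Atp6ap1 (1.19 times), were higher. None of the 3 V0 members was higher, and Atp6v0a1 was at 0.861 of the WT level. Among the other subunit genes tested, 4 of 7 in V0 were called higher and 2 lower. In V1, 1 of 4 others was called higher and 1 lower. Without both WT libraries that stood apart these counts were 4 and 3 in V0, and 3 and 1 in V1. Of all genes tested 29.4% were called higher and 27.8% lower, and the median log2 difference was 0.31 over the members.

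In 7 genes each Vps15KO library was above each WT library and in 1 below, beside 33.8% and 32.5% of all genes tested. The log2 differences were 0.62 ± 0.06 (SE; adjusted p = 1.05e-07) for Atp6v1c1, 0.57 ± 0.06 (1.46e-07) for Atp6v1d, 0.57 ± 0.07 (1.46e-06) for Atp6ap2, 0.46 ± 0.06 (4.68e-06) for Atp6v1h, 0.37 ± 0.06 (2.39e-05) for Atp6v1b2 and 0.25 ± 0.06 (0.00131) for Atp6ap1. Atp6v0a1 differed by -0.22 ± 0.07 (adjusted p = 0.0119), a call lost without Vps15KO EBSS replicate 1 (-0.17, adjusted p = 0.0748). Atp6v1a did not overlap between genotypes but missed the threshold (0.18 ± 0.08, adjusted p = 0.0629). It was called when WT basal replicate 2 was left out (adjusted p = 0.0039). Atp6v0c (-0.03 ± 0.06, 95% interval -0.17 to 0.10) and Atp6v0d1 (-0.07 ± 0.08, -0.23 to 0.10) overlapped between genotypes.

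The remaining subunit genes moved in both directions. Of 4 other V1 genes tested, 1 was higher and 1 lower after EBSS in WT, and in basal medium 2 were higher and 1 lower in Vps15KO. Over all genes tested 31.4% were higher and 31.3% lower after EBSS in WT, and 29.3% and 29.2% in basal Vps15KO cells. Without both WT libraries that stood apart, 2 were higher and 1 lower after EBSS in WT, and 3 and 1 in basal Vps15KO cells. Atp6v1e1, of the peripheral stalk, rose by 0.14 ± 0.06 after EBSS in WT (adjusted p = 0.0426), a call lost under several alternatives (0.05 with quantile normalization), and was 0.25 ± 0.06 higher in Vps15KO basal cells. Atp6v1g1, of the same stalk, was 0.68 ± 0.06 higher in Vps15KO basal and 0.43 ± 0.06 higher in Vps15KO EBSS than in WT, while its brain-enriched paralog Atp6v1g2 was lower by -0.89 ± 0.11 and -0.66 ± 0.11. Atp6v1f, of the rotor shaft, fell by 0.31 after EBSS in WT (SE 0.08), by 0.18 without WT basal replicate 2, or by 0.07 and without a call once length and GC trends were removed.

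Of 7 other V0 genes tested, 2 were higher and 3 lower after EBSS in WT, and 2 and 3 in Vps15KO basal cells. Without both WT libraries that stood apart these counts were 2 and 2, and 3 and 2. The shares over all genes tested were 31.4% higher and 31.3% lower after EBSS in WT, and 29.3% and 29.2% in Vps15KO basal cells. Atp6v0b, a second proteolipid of the ring, was higher in Vps15KO by 0.45 ± 0.07 in basal medium and by 0.52 ± 0.07 in EBSS. Atp6v0d2, the d isoform known from osteoclasts, rested on few reads, with 3.75 ± 2.54 (SD, n = 3) normalized counts in WT and 32.0 ± 4.35 in Vps15KO in basal medium, and 22.98 ± 3.67 and 41.7 ± 3.65 in EBSS. It was called higher in Vps15KO in both media and after EBSS in WT, yet took at most 0.82% of the d-subunit reads per kilobase in any library.

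The a subunit, whose isoform steers the pump to its compartment, is encoded by 4 paralogs, whose transcripts moved apart. Tcirg1 encodes a3, the isoform of lysosomes and of the osteoclast membrane. In WT it had 2140.5, 2855 and 2323 normalized counts in basal medium and 1221, 1178 and 1092 in EBSS. In Vps15KO it had 2575, 2940.4 and 2812 in basal medium and 2062, 2050.4 and 2279 in EBSS. EBSS lowered it in both genotypes, by -1.04 ± 0.09 (SE; adjusted p = 9.98e-09) in WT and -0.38 ± 0.09 (adjusted p = 0.0014) in Vps15KO, and the difference of 0.66 ± 0.12 was called (adjusted p = 0.00111). In basal medium the genotypes overlapped in Tcirg1 and their difference was not called with all libraries. It was called higher in Vps15KO without WT basal replicate 2 (0.31, adjusted p = 0.000328). Atp6v0a2 (a2, known from the Golgi) rose after EBSS by 0.39 ± 0.06 in WT and 0.29 ± 0.06 in Vps15KO, and was lower in Vps15KO by -0.22 ± 0.06 in basal medium and -0.32 ± 0.06 in EBSS. With length and GC trends removed its EBSS rise in Vps15KO was 0.13 and not called (adjusted p = 0.0591).

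Per kilobase, a3 made up 50.5% ± 3.09 (SD, n = 3) of the a-subunit reads in WT basal and 32.0% ± 1.51 in WT EBSS libraries, against 58.7% ± 1.88 and 50.6% ± 0.436 in Vps15KO. The share of a1 was 35.8% ± 1.81 in WT basal, 44.4% ± 1.20 in WT EBSS, 29.6% ± 1.01 in Vps15KO basal and 32.9% ± 0.831 in Vps15KO EBSS. The share of a2 was 13.5% ± 1.77, 23.4% ± 0.449, 11.7% ± 0.985 and 16.1% ± 0.535 in the same order, and Atp6v0a4 (a4) stayed at or below 0.406% in every library. Thus a1 overtook a3 in WT EBSS libraries, and in the other 3 groups a3 was the larger. The summed a-subunit reads per kilobase were 1453 ± 139 in WT basal, 1097 ± 21.7 in WT EBSS, 1428 ± 51.6 in Vps15KO basal and 1271 ± 80.9 in Vps15KO EBSS libraries. No test was made of these shares, which depend on the lengths used. With the length of the longest transcript, a length chosen after seeing the data, the share of a1 in WT EBSS was 42.4% and that of a3 was 34.3%.

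**Figure D5:**
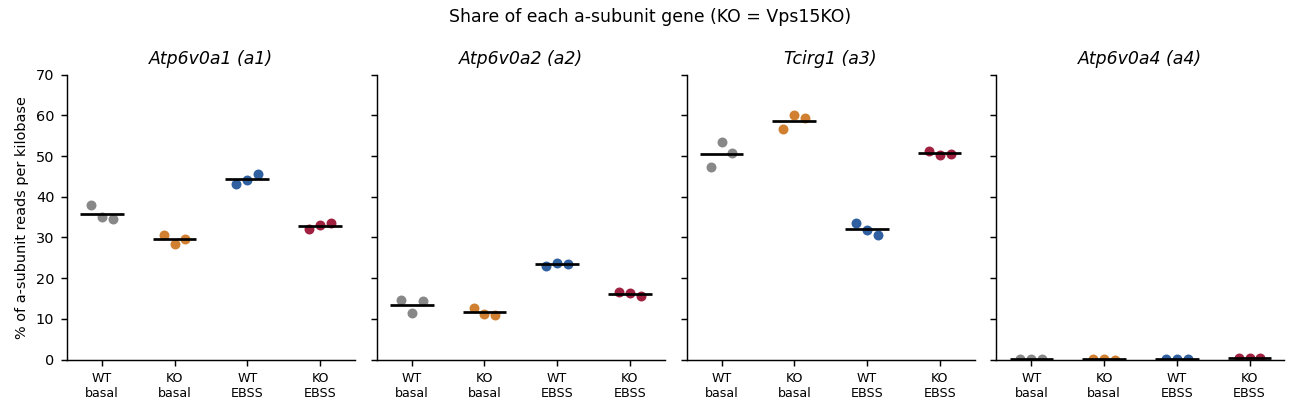
Share of each a-subunit gene among all a-subunit reads per kilobase (vertical axis, percent) in each library (points) with the group mean (bar), KO standing for Vps15KO. Tcirg1 holds 47.3% or more in 9 libraries and 30.7% to 33.6% in the 3 WT EBSS libraries.

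Because Tcirg1 and Atp6v0d2 are known from osteoclasts, markers of macrophages and osteoclasts were read beside them. The sum of 8 such markers was 901 to 927 normalized counts in WT basal, 2976 to 3865 in Vps15KO basal, 837 to 924 in WT EBSS and 2702 to 3399 in Vps15KO EBSS libraries. Nearly all of it was Cd68 (in basal medium 874 ± 15.4 in WT and 3449 ± 475 in Vps15KO, SD, n = 3), which encodes a protein of lysosomal membranes. The leukocyte marker Ptprc and the macrophage marker Adgre1 had at most 1.98 and 0.983 normalized counts in any library, below the 3 reads that a count of 0 allows. Ctsk, the collagen-degrading protease of osteoclasts, had 29.9 ± 15.7 normalized counts in the WT basal group, 52.2 ± 4.51 in Vps15KO basal, 24.3 ± 5.07 in WT EBSS and 71.0 ± 12.7 in Vps15KO EBSS libraries, and was called higher in Vps15KO in both media (adjusted p = 0.00786 and 5.37e-05). Csf1r, the receptor for a growth factor of macrophages, had 2.69 ± 2.06, 6.85 ± 2.92, 14.5 ± 2.11 and 15.4 ± 1.1 in the same order. It was called higher after EBSS in both genotypes, by 0.81 ± 0.14 and 0.48 ± 0.14 on the log2 scale. It was also called higher in Vps15KO in basal medium (0.37 ± 0.14, adjusted p = 0.0334), a call lost under several alternatives, among them without WT basal replicate 2 (adjusted p = 0.148). Acp5, also on the list, was not called between genotypes in basal medium (log2 difference -0.08). It was called lower after EBSS in WT (-0.33 ± 0.13, adjusted p = 0.0355). That call was lost under several alternatives, among them without WT basal replicate 2 (adjusted p = 0.142). Ptprc, Adgre1, Ocstamp and Dcstamp had too few reads to be tested. The part of these markers in the changes of Atp6v0d2 and Tcirg1 was not tested. Marker sums of other kinds were far lower than those of fibroblasts. The sum of 5 epithelial markers was 1.95 to 9.801 in basal medium and 17.8 to 30.6 in EBSS. For 4 endothelial markers it was 3.18 to 7.997 in WT and 17.6 to 25.7 in Vps15KO. For 6 muscle and neural markers it was in basal medium 65.1 to 81.5 in WT and 123 to 132 in Vps15KO. In EBSS it was 35.6 to 50.97 in WT and 76.7 to 100.8 in Vps15KO. Krt8, the only epithelial marker tested, was called higher after EBSS in both genotypes (log2 change 1.03 and 1.32). Of 3 muscle and neural markers tested, Tubb3 (0.78 ± 0.13) and Des (0.67 ± 0.18) were called higher in Vps15KO in EBSS.

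Genes that help the pump to assemble or that work beside it moved in both directions. Of 3 assembly factors of the endoplasmic reticulum, Ccdc115 rose after EBSS by 0.72 ± 0.09 (SE) in WT and 0.99 ± 0.09 in Vps15KO, and Vma21 by 0.46 ± 0.09 and 0.25 ± 0.09. Tmem199 fell after EBSS by 0.59 in Vps15KO (SE 0.08) and was higher in Vps15KO by 0.94 ± 0.08 in basal medium and 0.50 ± 0.08 in EBSS. The other 2 went the other way between genotypes, with Ccdc115 called lower in Vps15KO in basal medium (-0.47) and Vma21 in EBSS (-0.37). The EBSS rise of Vma21 in Vps15KO lost its call under several alternatives (0.09 with length and GC trends removed).

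Of 9 genes of the RAVE complex, which rejoins V1 with V0, and of TLDc proteins, a family with members that bind V1, 5 rose and 2 fell after EBSS in WT. In Vps15KO 6 rose and 2 fell after EBSS. The shares over all genes tested were 31.4% and 31.3% in WT and 25.9% and 26.1% in Vps15KO. Dmxl2, a scaffold of the complex, lost its call in WT without WT basal replicate 2 (0.23, adjusted p = 0.0513), which left 4 risen genes. Its rise in Vps15KO (0.28, adjusted p = 0.0468) lost its call when any 1 Vps15KO library was left out (adjusted p = 0.0522 to 0.168). With length and GC trends removed, Dmxl2 (-0.0094), Ncoa7 (0.08) and Tbc1d24 (0.11) were not called after EBSS in Vps15KO, nor was Dmxl2 in WT (0.06). Meak7 fell to 0.469 of the basal level in WT and to 0.417 in Vps15KO (SE of the log2 change 0.10 each), and Tbc1d24 rose by 0.59 ± 0.08 and 0.36 ± 0.08. Dmxl2 was higher in Vps15KO by 1.27 ± 0.11 in basal medium and 1.18 ± 0.11 in EBSS, and Ncoa7 by 0.48 ± 0.09 and 0.64 ± 0.09.

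Of the 5 genes of Ragulator, the lysosomal scaffold that binds the pump, 1 rose and 2 fell after EBSS in WT. Over all genes tested 31.4% were called higher and 31.3% lower in that comparison. Without both WT libraries that stood apart 2 rose and 2 fell. Lamtor3 rose 2.02 times in WT and 1.86 times in Vps15KO (SE of the log2 change 0.07 each), whereas Lamtor2 fell by 0.47 and 0.45 (SE 0.06 each). Lamtor4 fell by 0.37 after EBSS in WT (SE 0.11; 0.21 without WT basal replicate 2, and 0.07 with no call once length and GC trends were removed), and was lower in Vps15KO by -0.62 ± 0.11 in basal medium and -0.49 ± 0.11 in EBSS. In EBSS 4 of the 5 were lower and 1 higher in Vps15KO, beside 27.8% lower and 29.4% higher of all genes tested, and among the lower was Lamtor1 (-0.20 ± 0.08, adjusted p = 0.0369). The call of Lamtor1 was lost without WT EBSS replicate 2 or 3 and without Vps15KO EBSS replicate 1 or 2 (adjusted p = 0.0705 to 0.152), and without WT EBSS replicate 1 the number of lower genes was 2.

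Among 11 tested channels and exchangers that share the lysosomal membrane with the pump, 5 rose and 2 fell after EBSS in WT, and in basal medium 6 were higher and 4 lower in Vps15KO. The shares over all genes tested were 31.4% and 31.3% after EBSS in WT, and 29.3% and 29.2% in basal Vps15KO cells. The paired two-pore channel genes differed from each other. Tpcn2 was lower in Vps15KO by -1.19 ± 0.07 in basal medium and -1.14 ± 0.07 in EBSS, and Tpcn1 rose after EBSS by 0.92 ± 0.06 in WT and 0.46 ± 0.06 in Vps15KO. The chloride and proton exchanger Clcn6 (0.46 ± 0.07) and the calcium channel Mcoln1 (0.51 ± 0.05) were higher in Vps15KO in basal medium.

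Among 20 lysosomal hydrolases and membrane proteins, 14 were higher and 1 lower in Vps15KO in basal medium (median 0.23), and 8 and 0 in EBSS. Over all genes tested 29.3% were higher and 29.2% lower in basal medium and 29.4% and 27.8% in EBSS, so that 8 of 20 is not far from the share of higher genes. Without both WT libraries that stood apart the counts were 15 and 0 in basal medium and 10 and 1 in EBSS. The cholesterol transporter Npc1 was higher in Vps15KO by 0.98 ± 0.06 in basal medium and 1.31 ± 0.06 in EBSS, the sialidase Neu1 by 0.99 ± 0.06 and 0.55 ± 0.06, and Lamp1 by 0.61 ± 0.07 and 0.46 ± 0.07. After EBSS in WT 6 of the 20 rose and 4 fell (median -0.05), beside 8 and 0 of the 10 pump genes (median 0.52). The shares over all genes tested in that comparison were 31.4% higher and 31.3% lower. Of the genes that encode the factors that bind CLEAR elements, Tfeb fell by 0.88 in WT and by 0.30 in Vps15KO after EBSS (SE 0.08 each) and was 0.66 lower in Vps15KO basal than in WT basal cells. Mitf rose by 0.34 ± 0.08 and 0.64 ± 0.08 after EBSS, but its rise in WT was 0.09 and not called once length and GC trends were removed. Tfe3 was 0.29 ± 0.06 higher in Vps15KO in basal medium and 0.35 ± 0.06 in EBSS. These are transcript levels, while the factors are known to be set largely by phosphorylation and entry into the nucleus.

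Over the 12 libraries, 9 of the 10 members ran with the mean of the centred and scaled members, from Pearson's r of 0.730 for Atp6ap1 to 0.988 for Atp6v1c1, and Atp6v0a1 ran against it (-0.688). The members are part of that mean, and the 12 libraries fall into 4 groups, so libraries of a group are not separate conditions. Among genes outside the lists, Itgb2 (0.991), Tfrc and G3bp1 (0.990 each), Gadd45a (0.989) and Ttc7 (0.988) were most like the mean. For Atp6v1c1 the nearest were Ttc39b (0.994), Itgb2 and Neo1 (0.993 each), G3bp1 (0.992) and Cct6a (0.991). For Atp6v1h they were Arhgap12 and Slc7a1 (0.996 each), Smndc1 (0.995), Naa50 and Ptp4a1 (0.992 each).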

How the data were processed

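The authors deposited 1 table of log2 values, their variance-stabilizing transformation of gene counts. Per the submitters' processing notes the tools were STAR 2.7.10b, featureCounts, limma and DESeq2 and the build was mm10, with no roles given, and the use of strand in counting is not given in the sources used here. The transformation was inverted from the table's lowest value, 3.83 (a count of 0). In each library 100% of values came out whole within 0.001, with size factors of 0.945 to 1.02. The depth, 21278921 to 21698584 reads in genes, was similar in all libraries.

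The 14279 genes whose mean exceeded the lowest value by 1 or more were fitted with limma 3.58.1 in R 4.3.3, with 1 mean per group, empirical Bayes moderation and a variance trend (8 residual and 10.2 prior degrees of freedom), also tested on simulated data. Log2 changes understate ratios of genes with few reads. The lengths of joined exons came from GENCODE protein-coding transcripts of mm10. The length and GC trends and the length of the longest transcript used the longest GENCODE transcript of a gene, of any type.

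All members are named in every comparison, and of each other list up to 4 called genes with the smallest p. Nearest genes are the 5 with the highest r outside the lists. Atp6v0e is named only for its promoter. The members and lists were chosen with earlier results of these data known. Alternatives covered scaling, filters, the variance model, length and GC trends, a replicate block and each library left out. Counts of the lists without the WT libraries that stood apart were added after seeing the data. Atp6v1g3 was not analysed here. One gene that this rule names is not reported here.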

Additional observations from a re-analysis of the deposited data

Results flagged for a closer look

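The EBSS effect differed between genotypes, by the interaction term of the fit over all genes, for 4 of the 10 V-ATPase genes. The difference, Vps15KO minus WT, was -0.79 ± 0.08 (log2, SE) for Atp6v1b2, -0.53 ± 0.12 for Atp6v1a, -0.48 ± 0.10 for Atp6ap2 and -0.40 ± 0.09 for Atp6v1c1. In all 4 the Vps15KO basal libraries lay above the WT basal libraries, and the WT basal level enters both values. The same order held for Atp6v1d, Atp6v1h, Atp6v0c and Atp6ap1, which had no called difference, and for 30.5% of all genes tested.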

How the results depend on the processing

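Over 25 alternatives, 1202 of 1240 member values kept their side of the threshold, 25 passed it only under the alternative and 13 lost it. Fitting only the groups compared gave no value for the difference, which needs all 4. No value that was called in the main fit or under the alternative changed sign, but some uncalled values did. The difference of Atp6v1h was -0.04 in the main fit and 0.05 with length and GC trends removed. After EBSS in WT, 1 member was called lower with quantile normalization and with length and GC trends removed. With those trends removed Atp6v0b rose by 0.27 and Npc1 changed by -0.19 after EBSS in WT, Dmxl2 changed by -0.0094 after EBSS in Vps15KO and Lamtor2 by 0.0021 in Vps15KO in basal medium, each opposite in sign to its main value, and the cause was not tested. The member lower in Vps15KO in EBSS was not called at an adjusted p under 0.01 (0 members), and leaving out 1 library at a time gave 0 to 1. For the difference of the EBSS effect, 1363 genes were higher and 1177 lower, but 707 and 520 at an adjusted p under 0.01 and 827 and 690 with no filter on low values, where more genes were adjusted for, and 1805 were lower with library weights. Leaving out each library gave 1023 to 1659 higher and 832 to 1516 lower, and 4 to 6 members lower. The replicate numbers are not shown to pair the libraries: residuals of the same number correlated at 0.039 to 0.26 within a medium, those of different numbers at -0.212 to 0.106, and those of the same number within a genotype at -0.155 to 0.012. Not every library correlated best with its own number. With the replicate as a block, 9 members were higher in Vps15KO in basal medium in place of 8, the added one being Atp6v0d1 (adjusted p = 0.0423), and no other call of a member changed. No scaling moved the median change of all genes to more than 0.0536.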
